A study of Saccharomyces cerevisiae with 48 samples.

Results

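The response of brewer's yeast to 1-butanol in the presence of oxygen was described from 12 of the 48 RNA libraries of the series, namely 6 libraries of cells in 1-butanol and 6 of cells in YPD. All libraries of these 2 media that were grown with oxygen were taken. YPD is rich medium made from yeast extract, peptone and dextrose, and the 1-butanol cultures had 0.8% of the alcohol added to it. Each medium held 2 replicate cultures of each of 3 wild strains of Saccharomyces cerevisiae, WA from West African bili wine, PAP from papaya and IL01 from Illinois soil. All cultures, those in YPD included, first grew for 7 generations in YPD and then for about 3 generations in the test medium at 30 degrees in shaken flasks, and were collected in log phase. The study chose the dose to give a strong stress response while every strain could still grow. The strains carry no engineered alleles, and each is a single isolate, so that 3 genetic backgrounds stand behind every mean. Replicates were grown on different days. The question put to the data was which genes differed between 1-butanol and YPD in the same direction in all 3 strains.

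1-Butanol is a short-chain alcohol that enters the lipid bilayer and disturbs its order, and yeast makes small amounts of it and of longer fusel alcohols itself. In the Ehrlich pathway an aminotransferase turns an amino acid into a keto acid, a decarboxylase turns that into an aldehyde, and a dehydrogenase turns the aldehyde into an alcohol or an acid. The acids are pumped out by ABC transporters. With oxygen, and on glucose, yeast mostly ferments while holding part of its respiratory chain repressed. The chain and many other enzymes need iron, and a pair of transcription factors, Aft1 and Aft2, switch on the genes for iron uptake when iron is short.

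The 12 libraries had 7761311 to 13938540 mapped reads each, of which 5513939 to 10928123 lay in genes. Reads in genes are counted here only over the 6010 of 6713 gene IDs for which whole reads could be recovered from the deposited values. Levels are given as scaled RPKM, that is reads per kilobase of gene, corrected for the number of mapped reads, after each library was divided by 1 factor that evens out the typical gene. In these libraries 3 reads on a gene of 1 kb corresponded to 0.215 to 0.387 RPKM, and smaller levels rest on very few reads. Changes are log2(scaled RPKM + 0.25) in 1-butanol minus that in YPD, averaged over the 3 strains, and a gene was called at an FDR under 1% by limma's moderated test with Benjamini-Hochberg adjustment over all genes tested. An SD over 6 libraries holds the differences between strains as well as those between cultures. The SE and adjusted p of a change rest only on the spread between replicate cultures within a strain and medium. They do not measure how far a change varied between strains, and so apply to these 3 strains only. The libraries come from whole cultures, so a change in each cell and a change in which cells made up a culture cannot be told apart. The replicate pair that differed most was WA in YPD, where 6.95% of genes lay more than 1 log2 unit apart, against 1.5% to 4.59% in the other 5 pairs.

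In 1-butanol, the weak-acid exporter PDR12 and some genes of iron uptake, the Ehrlich pathway and protein folding were higher than in YPD, while a thiamine and a phosphate transporter and some genes of the respiratory chain, purine synthesis and the ribosome were lower. Of 5582 genes tested, 483 passed the threshold (8.65%), 295 of them higher (5.28%) and 188 lower (3.37%). All 6 strain-by-replicate pairs had the same sign in 418 of the called genes (7.49% of those tested), 263 higher (4.71%) and 155 lower (2.78%), and these are called shared here. The change was at least 1 log2 unit in 112 of the shared increases and in 66 of the shared decreases. In the gene lists below, members counted as risen or fallen are called genes, whether shared or not. The 6 libraries of 1-butanol did not overlap with the 6 of YPD in 214 genes (3.83%), of which 145 were shared. A block for each replicate number within each strain gave 1189 calls, 556 higher and 633 lower, which included all 483, and 971 shared genes. The count of calls was 1025 without WA in YPD replicate 1 and 732 without WA in YPD replicate 2, and leaving out 1 of the other 10 libraries gave 247 (WA in 1-butanol replicate 1) to 323 (IL01 in 1-butanol replicate 1). On the deposited RPKM scale, where the median gene was 0.218 higher in 1-butanol, 468 genes were higher and 134 lower, or 77.7% higher against 61.1% on the scaled values.

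PDR12 (YPL058C, chrXVI:445842-450377) had the largest shared increase among genes with a mean scaled RPKM of at least 10. It encodes an ABC transporter of the plasma membrane that exports weak organic acids. Its scaled RPKM was 206 and 206 for WA, 1554 and 1096 for PAP and 1359.6 and 962 for IL01 in 1-butanol, against 30.2 and 34.6 for WA, 162 and 161 for PAP and 42.1 and 21.3 for IL01 in YPD. All 6 libraries in 1-butanol lay above all 6 in YPD, and the mean was 897 ± 574 in 1-butanol and 75.2 ± 67.1 in YPD (SD, n = 6 each). The change was 3.64 (SE 0.15, adjusted p = 5.9e-07) on the log2 scale, with 2.66 in WA, 3.01 in PAP and 5.24 in IL01. IZH4 (YOL101C, chrXV:126982-127920), a membrane protein of a family tied to zinc and sterol metabolism, had 201 and 239 for WA, 50.2 and 28.1 for PAP and 9.81 and 18.7 for IL01 in 1-butanol, against 7.98 and 7.68 for WA, 2.80 and 3.33 for PAP and 1.71 and 2.55 for IL01 in YPD. Every strain rose, by 3.61 (SE 0.19, adjusted p = 4.3e-06) on average, and WA reached the highest level in 1-butanol.

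**Figure D1:**
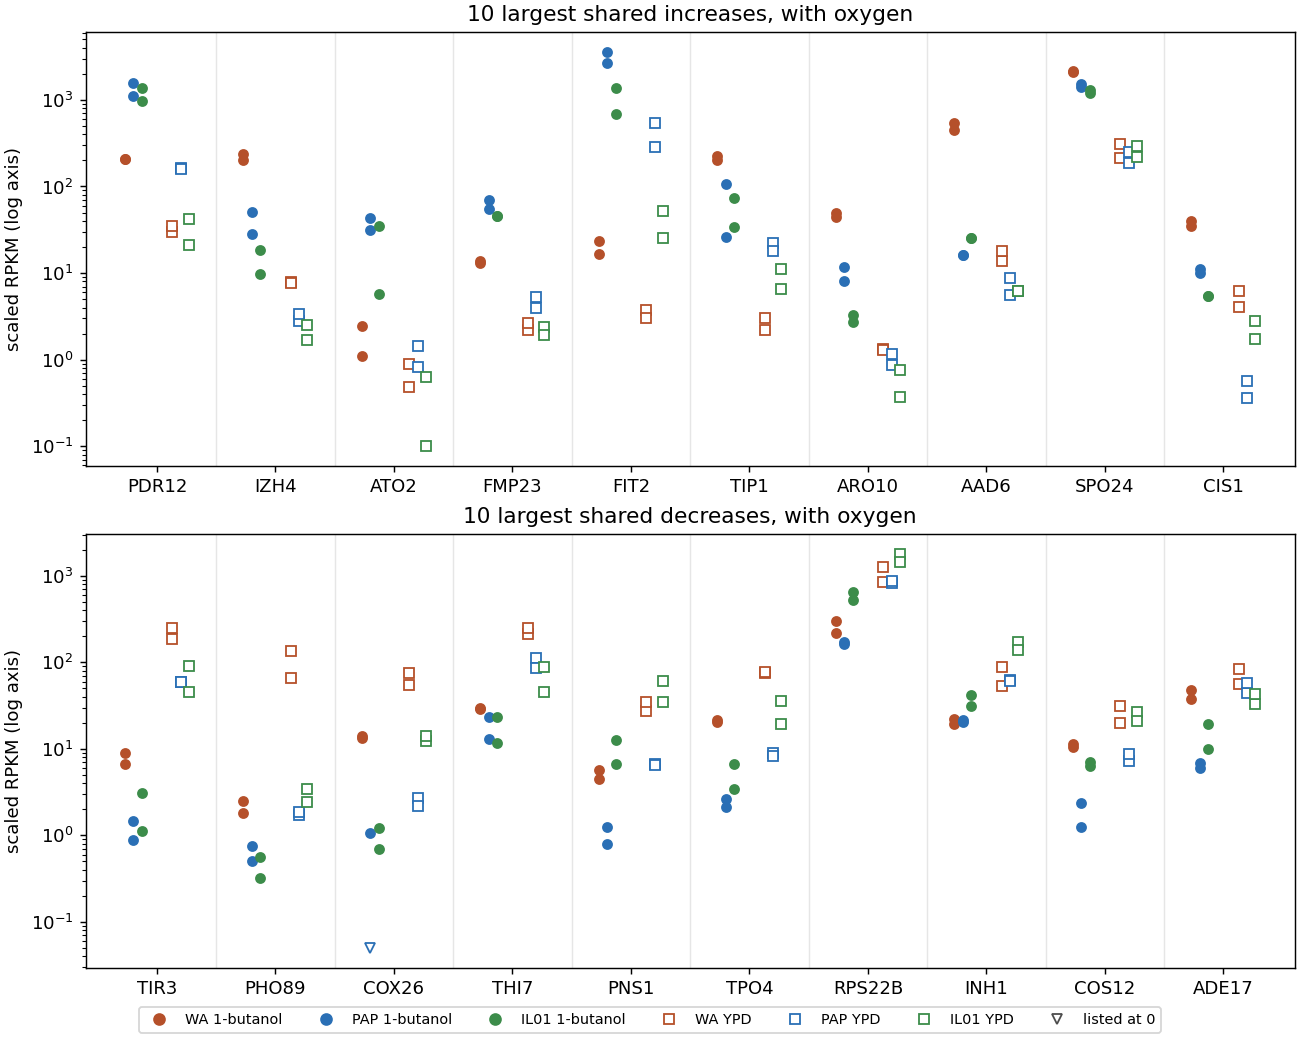
Scaled RPKM of the 10 largest shared increases (upper panel) and the 10 largest shared decreases (lower panel) in each of the 12 libraries with oxygen, on log axes, with filled circles for 1-butanol, open squares for YPD and a colour for each strain. PDR12 lay at 206 to 1554 in 1-butanol and 21.3 to 162 in YPD, TIR3 lay at 0.885 to 8.85 in 1-butanol and 45.5 to 251 in YPD, and the levels of FIT2 overlapped between media because strains differed more than media.

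Among the other large increases, SPO24, a small gene named from sporulation, was even over strains. Its levels were 2123 and 2145 for WA, 1518 and 1404 for PAP and 1291 and 1202 for IL01 in 1-butanol, against 216 and 313 for WA, 252 and 187 for PAP and 294 and 222 for IL01 in YPD. It rose by 2.69 (SE 0.13, adjusted p = 2.1e-06), and no library in 1-butanol came near the YPD range. FMP23, a mitochondrial protein, had 13.0 to 69.1 (median 45.5) in 1-butanol and 1.94 to 5.27 (median 2.49) in YPD. It rose by 3.44 (SE 0.12, adjusted p = 3.3e-07), again with no overlap between media. ATO2, of a family of ammonium and acetate transporters, had 1.10 and 2.44 for WA, 42.8 and 31.5 for PAP and 35.0 and 5.76 for IL01 in 1-butanol, against 0.882 and 0.490 for WA, 1.42 and 0.819 for PAP and 0.629 and 0.101 for IL01 in YPD. Its increase of 3.52 (SE 0.37, adjusted p = 0.00024) was carried mostly by PAP and IL01, and a WA library in 1-butanol lay within the YPD range. TIP1, a cell wall mannoprotein, showed the opposite balance, with 223 and 203 for WA, 106 and 26.0 for PAP and 73.2 and 34.2 for IL01 in 1-butanol, against 2.20 and 3.07 for WA, 22.2 and 18.0 for PAP and 11.3 and 6.61 for IL01 in YPD. The log2 change of TIP1 was 3.37 (SE 0.26, adjusted p = 3.6e-05) on average and 6.22 in WA, 1.39 in PAP and 2.5 in IL01. CIS1 had 5.39 to 39.9 (median 10.6) in 1-butanol and 0.358 to 6.29 (median 2.27) in YPD, overlapping between media since a YPD library of WA exceeded both 1-butanol libraries of IL01. CIS1 nevertheless rose within every strain, by 2.65 (SE 0.17, adjusted p = 1.3e-05) on average.

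Exporters other than PDR12 moved both ways. Of 22 drug and weak-acid exporters tested, 5 rose (3 without PAP in YPD replicate 1) and 2 fell (4 without WA in YPD replicate 1), and the median change was 0.13 against 0.01 over all genes. RSB1, a membrane protein that moves sphingoid long-chain bases, had 207 and 198 for WA, 6.01 and 2.42 for PAP and 187 and 128 for IL01 in 1-butanol, against 34.6 and 56.6 for WA, 0.309 and 0.245 for PAP and 111 and 69.6 for IL01 in YPD. It rose in every pair, by 1.99 (SE 0.21, adjusted p = 0.00023), although its level in PAP was far below that in the other strains in either medium. TPO4, a polyamine exporter, had 2.14 to 21.3 (median 5.11) in 1-butanol and 8.34 to 76.5 (median 27.5) in YPD and fell by 2.0 on the log2 scale (adjusted p = 3.5e-05).

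The Ehrlich pathway genes ARO9, ARO10 and BAT2 rose, while the pathway as a list did not move to one side. In the Ehrlich list of 10 tested genes, 4 rose, 1 fell and 5 did not pass, against 5.28% of all genes called higher, and 5 had a negative change. The median was 0.09, with 0.36 in WA, -0.17 in PAP and 0.19 in IL01. ARO10, the decarboxylase of phenylpyruvate and other keto acids, had 44.1 and 49.3 for WA, 11.9 and 8.0 for PAP and 3.29 and 2.72 for IL01 in 1-butanol, against 1.35 and 1.31 for WA, 1.15 and 0.865 for PAP and 0.373 and 0.761 for IL01 in YPD. Each 1-butanol library exceeded each YPD library, and the change was 3.31 (SE 0.18, adjusted p = 4.8e-06). ARO9, the aromatic aminotransferase, had 19.1 to 38.3 (median 28.9) in 1-butanol and 3.19 to 6.54 (median 4.54) in YPD and rose by 2.56 (SE 0.18, adjusted p = 2.3e-05). BAT2, the cytosolic branched-chain aminotransferase, had 149 to 336 (median 234) in 1-butanol and 67.7 to 126 (median 81.9) in YPD and rose by 1.40 (SE 0.10, adjusted p = 2.6e-05), with no overlap between media in either gene.

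Aldehyde dehydrogenases that make acetate were among the genes that rose. Of 19 alcohol and aldehyde dehydrogenases tested, 5 rose and none fell, and the list's median was 0.10, against 5.28% of all genes called higher. The number that rose was 3 without PAP in YPD replicate 2, and 1 fell without WA in YPD replicate 1. ALD4, the mitochondrial enzyme, had 30.0 and 32.8 for WA, 159.9 and 117 for PAP and 141 and 71.6 for IL01 in 1-butanol, against 12.1 and 19.6 for WA, 46.0 and 34.8 for PAP and 25.7 and 20.1 for IL01 in YPD, and rose by 1.64 (SE 0.18, adjusted p = 0.00035). ALD6, the main cytosolic enzyme, had 2893 and 2936 for WA, 3158 and 2386 for PAP and 2415 and 1674 for IL01 in 1-butanol, against 1305 and 1475 for WA, 1698 and 1236 for PAP and 1464 and 1088 for IL01 in YPD. It rose by 0.89 (SE 0.13, adjusted p = 0.0013) and without PAP in YPD replicate 2 its adjusted p was 0.0104. ALD5, a further mitochondrial aldehyde dehydrogenase, passed the test at 0.59 (SE 0.09, adjusted p = 0.0017) but was not shared, with 0.91 in WA, -0.04 in PAP and 0.90 in IL01, and lost the call without PAP in 1-butanol replicate 1 (adjusted p = 0.0111) and with strain as an additive block (adjusted p = 0.0237). ARI1, an NADPH-dependent aldehyde reductase, rose by 0.60 (SE 0.09, adjusted p = 0.0013). ADH5, an alcohol dehydrogenase, had 3.07 to 13.5 (median 9.83) in 1-butanol and 1.13 to 10.9 (median 7.60) in YPD and did not pass, at 0.53 (SE 0.25, adjusted p = 0.16). The malate dehydrogenase gene MDH2 and the glutamate dehydrogenase gene GDH1 did not pass either, at 0.10 (adjusted p = 0.65) and 0.11 (adjusted p = 0.45).

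Aryl-alcohol dehydrogenase genes, relatives of fungal enzymes that reduce aromatic aldehydes, rose in part, and AAD6 and AAD10 changed most in WA. Of 6 tested, 3 rose, 2 of them shared, and none fell, with a median of 0.84. The strain medians were 0.24 in WA, 0.54 in PAP and 0.75 in IL01, lowest in WA. AAD6 (YFL056C, chrVI:14305-15431) had 538 and 446 for WA, 16.3 and 16.1 for PAP and 25.3 and 25.6 for IL01 in 1-butanol, against 13.9 and 18.2 for WA, 8.75 and 5.57 for PAP and 6.13 and 6.15 for IL01 in YPD. The increase was present in every pair and much larger in WA, at 4.92 in WA, 1.19 in PAP and 2.01 in IL01, and the mean was 2.71 (SE 0.13, adjusted p = 1.5e-06). AAD10 had 305 and 219 for WA, 8.08 and 8.02 for PAP and 22.4 and 18.4 for IL01 in 1-butanol, against 11.5 and 13.3 for WA, 5.94 and 4.31 for PAP and 11.5 and 10.9 for IL01 in YPD, a change of 1.95 (SE 0.11, adjusted p = 6.2e-06) on average and 4.36 in WA, 0.64 in PAP and 0.84 in IL01. In a fit with strain as an additive block AAD10 no longer passed (adjusted p = 0.0221). Members of this family are alike in sequence, and reads may have been shared among them.

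Iron acquisition genes rose in part in 1-butanol. The siderophore list had 5 of 7 members higher, 4 of them shared, and none lower, with a median of 1.48. The list of other iron uptake and iron-sparing genes had 11 of 24 higher, all of them shared, and none lower. Its median was 0.46 (5.28% of all genes were called higher). The other 13 did not pass, FTR1 (0.08) and FRE2 (-0.11) among them, and neither did SIT1 of the siderophore list (0.09). Without PAP in YPD replicate 1 the second list held 6 calls. FIT2 (YOR382W, chrXV:1059531-1059992), a cell wall mannoprotein that holds siderophores, had 23.4 and 16.5 for WA, 3579 and 2662 for PAP and 1366 and 685 for IL01 in 1-butanol, against 3.71 and 3.00 for WA, 541 and 283 for PAP and 52.8 and 25.7 for IL01 in YPD. Strains differed more than media did, so the media overlapped, but every strain rose, by 2.47 in WA, 2.98 in PAP and 4.70 in IL01, and by 3.38 (SE 0.12, adjusted p = 3.3e-07) on average. FIT3, of the same family, had 96.7 and 63.3 for WA, 2241 and 924 for PAP and 1834 and 335 for IL01 in 1-butanol, against 11.3 and 10.8 for WA, 857 and 433 for PAP and 109 and 31.7 for IL01 in YPD, and rose by 2.59 (SE 0.26, adjusted p = 0.0002). FIT1 had 50.6 and 30.1 for WA, 25.2 and 16.8 for PAP and 4.22 and 1.39 for IL01 in 1-butanol, against 3.98 and 2.36 for WA, 5.67 and 3.07 for PAP and 3.25 and 1.08 for IL01 in YPD. Its change was 2.04 (SE 0.15, adjusted p = 2.6e-05) on average, but only 0.33 in IL01, where its level was lowest. The FIT genes are related in sequence and may share reads.

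Of the iron genes outside the siderophore list, TIS11, also known as CTH2, encodes an mRNA-binding protein that marks transcripts of iron-using enzymes for decay. It had 29.1 and 24.5 for WA, 75.8 and 109 for PAP and 49.8 and 60.4 for IL01 in 1-butanol, against 6.73 and 6.30 for WA, 63.9 and 30.6 for PAP and 16.8 and 15.0 for IL01 in YPD, and rose by 1.60 (SE 0.18, adjusted p = 0.00032), with a small difference in the first PAP pair. FRE5, a putative ferric reductase, had 4.78 and 3.76 for WA, 18.6 and 21.8 for PAP and 15.7 and 16.6 for IL01 in 1-butanol, against 0.872 and 1.13 for WA, 18.4 and 15.2 for PAP and 3.42 and 2.54 for IL01 in YPD. It rose by 1.49 (SE 0.13, adjusted p = 9.3e-05), and PAP, which had the highest YPD level, changed least. COT1, a vacuolar transporter of zinc and cobalt, had 60.7 to 105 (median 75.6) in 1-butanol and 15.6 to 46.8 (median 31.1) in YPD and rose by 1.46 (SE 0.12, adjusted p = 4.2e-05) without overlap between media.

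The 500 bases before the annotated start of each gene in the RefSeq R64 genome were searched because many iron genes rose. On both strands they were read for the core of the Aft1 binding site, GCACCC. Its reverse complement can overlap the stress response element AGGGG, which was searched separately. The core was found before 7 of 7 siderophore genes, 17 of 24 iron uptake and iron-sparing genes and 398 of 5361 genes in all (7.40%). Among shared genes it was found before 47 of 256 that rose (18.4%) and 12 of 144 that fell (8.33%). The shared increases include members of the iron lists, whose rise prompted the search, so these shares are not independent of it. The iron lists were drawn from general knowledge of yeast pathways, so a raised share before their members is no test. Of the 24 iron genes of both lists with a match, 14 rose and none fell, with a median change of 0.61 and a range of -0.31 to 3.38. Of the 7 without one, 2 rose, with a median of 0.29. A match describes these letters only. The match nearest to the gene start is printed for the genes that carry the iron result and, for contrast, for FET3, the multicopper ferroxidase of high-affinity uptake, which did not pass (-0.31 log2). ARN1, a siderophore transporter, and FET3 were chosen after their values were seen. Each run is read 5′ to 3′ with the core in capitals.
FIT1 (chrIV:1505065-1505094, plus strand): attcatttttttGCACCCtttcctagaact
FIT2 (chrXV:1059388-1059417, minus strand): gctaattatactGCACCCagttagattcgt
FIT3 (chrXV:1061222-1061251, plus strand): ccccatttttttGCACCCtttcctagaatg
ARN1 (chrVIII:21213-21242, minus strand): atttatcaaaatGCACCCataaaagcaggt
TIS11 (chrXII:416814-416843, plus strand): tgctggcacaatGCACCCaactgcatgtgc
FET3 (chrXIII:388560-388589, plus strand): atcttcaaaagtGCACCCatttgcaggtgc
These lie 176 bases before FIT1, 125 before FIT2, 178 before FIT3, 253 before ARN1, 167 before TIS11 and 244 before FET3. The window of FIT2 held 5 matches. FIT3 and FRE5 are transcribed away from a common intergenic region, so that their matches are the same ones. The print shows that the core stood both before genes that rose several log2 units and before a gene that did not pass.

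Lipid and zinc genes changed in part. Of 16 genes for fatty acid synthesis and activation, 5 rose (2 without PAP in YPD replicate 2) and 1 fell, with a median of 0.01 that stood at 0.61 in WA, -0.07 in PAP and -0.06 in IL01. FAA1, a long-chain acyl-CoA synthetase, had 51.2 to 90.8 (median 82.3) in 1-butanol and 26.3 to 31.3 (median 28.7) in YPD and rose by 1.39 (SE 0.09, adjusted p = 1.5e-05) with no overlap between media. MGA2, a membrane-bound factor that senses lipid order and drives the fatty acid desaturase gene, had 19.4 to 63.9 (median 34.0) in 1-butanol and 10.7 to 17.8 (median 14.9) in YPD and rose by 1.36 (SE 0.14, adjusted p = 0.00021), also without overlap. FAA4, another acyl-CoA synthetase, rose by 0.74 (SE 0.11, adjusted p = 0.0017), mainly in WA (1.42), and lost the call without PAP in YPD replicate 2 (adjusted p = 0.0116) and with strain as an additive block. Of 29 ergosterol genes 1 rose and 1 fell, the second being ERG8, the phosphomevalonate kinase, at -0.54 (SE 0.08, adjusted p = 0.0017), a call lost on the deposited scale, with strain as an additive block and without WA or PAP in 1-butanol replicate 1. In the zinc list 3 of 15 rose (1 without PAP in YPD replicate 1, 5 without WA in YPD replicate 2) and 1 fell (3 without WA in YPD replicate 1), with a median of -0.16, and IZH2, a relative of IZH4, rose by 0.97 (SE 0.15, adjusted p = 0.0022), a call that was lost without PAP in YPD replicate 1 or 2, WA in 1-butanol replicate 2 or PAP in 1-butanol replicate 1. PDR11, a transporter for sterol uptake, had 1.10 to 2.68 (median 1.27) in 1-butanol and 1.88 to 14.6 (median 2.91) in YPD and fell by 1.36 on the log2 scale (adjusted p = 0.00066).

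Protein folding and quality control genes rose in part. Of 30 chaperone genes 9 rose and none fell, against 5.28% of all genes called higher. Without PAP in YPD replicate 1 the number that rose was 4. The list's median was 0.32 and was highest in WA, with 0.687 in WA, 0.084 in PAP and 0.195 in IL01. ERO1, which drives disulfide bond formation in the endoplasmic reticulum, had 169 and 149 for WA, 104 and 133 for PAP and 162 and 167 for IL01 in 1-butanol, against 54.3 and 61.9 for WA, 58.9 and 61.0 for PAP and 55.3 and 58.0 for IL01 in YPD. No YPD library reached the 1-butanol range, and the change was 1.32 (SE 0.09, adjusted p = 1.8e-05). HSP78, a mitochondrial disaggregase, had 10.2 to 36.0 (median 24.1) in 1-butanol and 7.68 to 10.3 (median 9.46) in YPD and rose by 1.17 (SE 0.13, adjusted p = 0.00031). RPN4, the transcription factor of proteasome genes, had 110.3 and 102 for WA, 105 and 119 for PAP and 56.7 and 87.5 for IL01 in 1-butanol, against 35.4 and 37.3 for WA, 49.6 and 49.0 for PAP and 43.6 and 49.3 for IL01 in YPD and rose by 1.11 (SE 0.10, adjusted p = 0.00014). Of 34 genes in the proteasome list, which holds RPN4, 2 were called and 33 had a positive change, with a median of 0.27. These changes were small, and 19 of the 34 were higher in all 6 pairs, against 13.7% of all genes. The block within strains called 12 of the 34, and leaving out WA in YPD replicate 1 called 14.

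Other increases belonged to stress and thiol defense genes of the cytosol and wall. In the stress list of 27 genes, 2 were shared increases and none was a shared decrease. HSP26, a small heat shock protein, had 19.6 and 24.7 for WA, 1.86 and 2.22 for PAP and 2.60 and 2.37 for IL01 in 1-butanol, against 3.32 and 5.59 for WA, 1.19 and 0.539 for PAP and 0.828 and 0.927 for IL01 in YPD and rose by 1.55 (SE 0.21, adjusted p = 0.00093). YGP1, a secreted glycoprotein made under nutrient stress, had 20.9 to 38.6 (median 24.1) in 1-butanol and 2.51 to 17.1 (median 11.9) in YPD and rose by 1.58 (SE 0.21, adjusted p = 0.00081), although in the fit with strain as an additive block the adjusted p was 0.0103. GTT2, a glutathione S-transferase, had 7.14 to 13.4 (median 9.92) in 1-butanol and 1.52 to 3.96 (median 2.85) in YPD and rose by 1.74 (SE 0.17, adjusted p = 0.00015) without overlap. GPX2, a glutathione peroxidase, went the other way, with 35.9 to 51.9 (median 38.2) in 1-butanol and 86.3 to 138 (median 125) in YPD. It fell by 1.55 on the log2 scale (SE 0.10, adjusted p = 1.2e-05) in every pair. The stress list as a whole had 3 of 27 genes higher (6 without WA in YPD replicate 1) and 3 lower, with a median of 0.13.

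**Figure D2:**
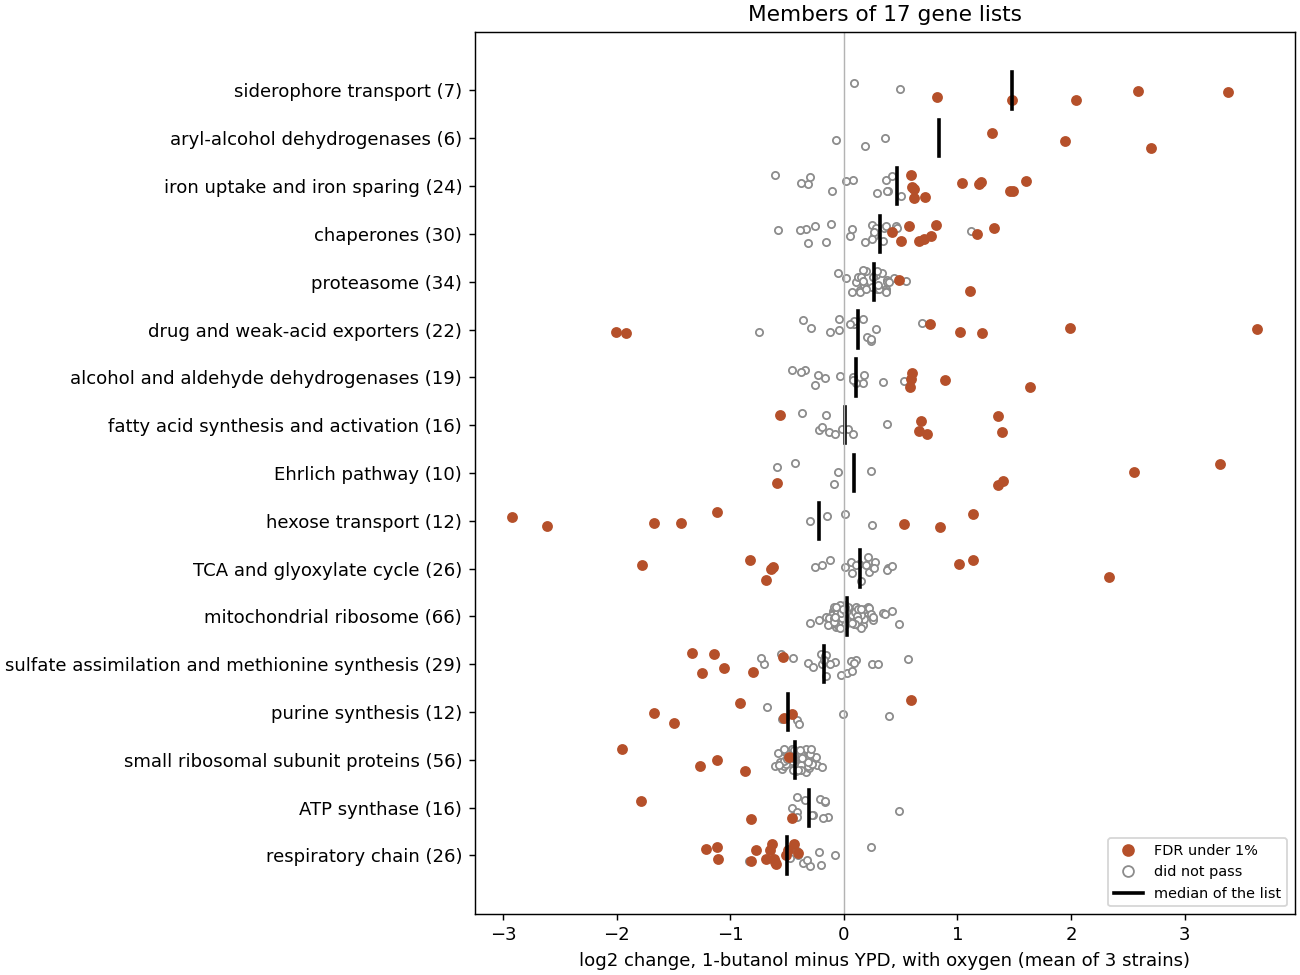
Log2 change in 1-butanol minus YPD with oxygen for each member of 17 gene lists, averaged over the strains, with filled points for genes called at an FDR under 1%, open points for the others and a bar at the median of each list. The siderophore list (7 genes) has a median of 1.48 and no member below 0, the respiratory chain (26 genes) has a median of -0.50 with 15 members called lower, and the mitochondrial ribosome (66 genes) has a median of 0.03 with no call.

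TIR3 (YIL011W, chrIX:333727-334536) had the largest decrease. It encodes a cell wall mannoprotein of the family that yeast makes in the cold and without oxygen. It had 8.85 and 6.73 for WA, 1.48 and 0.885 for PAP and 3.10 and 1.13 for IL01 in 1-butanol, against 187 and 251 for WA, 59.8 and 58.9 for PAP and 91.0 and 45.5 for IL01 in YPD. The media stood far apart, and TIR3 fell by 5.03 on the log2 scale (SE 0.20, adjusted p = 5.9e-07), with -4.77 in WA, -5.41 in PAP and -4.91 in IL01. CWP1, another wall mannoprotein, had 22.8 to 111 (median 54.4) in 1-butanol and 46.2 to 284 (median 192) in YPD and fell by 1.54 (adjusted p = 0.0006). The list of 28 wall mannoproteins had 2 members higher, TIP1 being 1 of them, and 2 lower, with a median of -0.20.

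Several plasma membrane transporters fell with TIR3. PHO89, the sodium-coupled phosphate transporter, had 1.84 and 2.53 for WA, 0.754 and 0.499 for PAP and 0.324 and 0.567 for IL01 in 1-butanol, against 65.1 and 134 for WA, 1.72 and 1.86 for PAP and 3.41 and 2.43 for IL01 in YPD. It fell in every pair, by 2.90 on average (SE 0.22, adjusted p = 2.7e-05) and by 5.28 in WA, which had by far the highest YPD level. THI7, the thiamine transporter, had 28.8 and 30.0 for WA, 23.6 and 13.1 for PAP and 23.5 and 11.7 for IL01 in 1-butanol, against 210.2 and 251 for WA, 111 and 85.6 for PAP and 87.9 and 45.3 for IL01 in YPD. All its 1-butanol libraries lay below all YPD libraries, and it fell by 2.44 (SE 0.17, adjusted p = 2.5e-05). PHO3, an acid phosphatase that splits thiamine phosphates, fell by 1.11 (adjusted p = 0.00031), and the thiamine list had 4 of 11 genes lower and 1 higher. PNS1, a membrane protein of unknown role, had 0.796 to 12.7 (median 5.04) in 1-butanol and 6.54 to 60.7 (median 31.1) in YPD, overlapping between strains but lower in each pair, and fell by 2.44 (adjusted p = 2e-05). SAM3, the permease for S-adenosylmethionine, fell by 1.34 (adjusted p = 0.00022). TAT1, a permease for tyrosine, tryptophan and branched-chain amino acids, rose by 1.07 (SE 0.11, adjusted p = 0.00018) and was the 1 called member among 18 amino acid permeases.

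Hexose transporter genes were split. Of 12 tested, 3 rose (1 without PAP in YPD replicate 1) and 5 fell (2 without PAP in YPD replicate 2), with a median of -0.22. All 3 that rose were shared, but only 2 of the 5 that fell. HXT7, a high-affinity transporter, had 0.489 and 0.445 for WA, 0.0584 and 0 for PAP and 0.570 and 0.321 for IL01 in 1-butanol, against 2.19 and 4.94 for WA, 0.192 and 0.101 for PAP and 23.0 and 21.2 for IL01 in YPD. It was near or below the level of 3 reads per kb in PAP, so that the decrease of 2.61 (adjusted p = 0.00021) rests on WA and IL01. With strain as an additive block it did not pass (adjusted p = 0.0121), and HXT6 is a near-identical copy that may share its reads. MTH1, a repressor of hexose transporter genes that was counted in this list, had 4.43 to 15.0 (median 7.01) in 1-butanol and 1.81 to 7.28 (median 3.02) in YPD and rose by 1.14 (SE 0.16, adjusted p = 0.0011) at the same size in each strain (1.14 in WA, 1.14 in PAP and 1.14 in IL01).

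Respiratory chain genes were lower in 1-butanol. Of 26 tested, 15 fell and none rose, against 3.37% of all genes called lower, and the median change was -0.50, with -0.41 in WA, -0.37 in PAP and -0.78 in IL01. The number that fell was 5 without PAP in YPD replicate 2, 19 without WA in YPD replicate 1 and 9 on the deposited scale. SDH1, the flavoprotein of succinate dehydrogenase, had 13.7 and 15.2 for WA, 22.9 and 13.0 for PAP and 24.4 and 12.7 for IL01 in 1-butanol, against 24.6 and 32.4 for WA, 37.2 and 39.4 for PAP and 63.1 and 43.2 for IL01 in YPD. It was lower in every pair, at -1.22 (SE 0.18, adjusted p = 0.0017), and without PAP in YPD replicate 2 its adjusted p was 0.0116. NDE1, the external NADH dehydrogenase, had 92.4 and 114 for WA, 107 and 105 for PAP and 304 and 251 for IL01 in 1-butanol, against 191 and 264 for WA, 269 and 234 for PAP and 585 and 516 for IL01 in YPD. The media overlapped, since an IL01 library in 1-butanol exceeded all WA and PAP libraries in YPD, but the fall was alike in all, at -1.13 in WA, -1.24 in PAP and -0.99 in IL01, and averaged -1.12 (SE 0.12, adjusted p = 0.00023). CYC1, which encodes cytochrome c, had 292 to 700.2 (median 359) in 1-butanol and 657 to 1234 (median 891) in YPD and fell by 1.10 (SE 0.12, adjusted p = 0.00031).

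COX26 and INH1, which act beside the chain, had larger decreases than any of the 26 chain genes. COX26, a small protein of the respiratory supercomplexes, had 13.4 and 14.1 for WA, 0 and 1.07 for PAP and 0.694 and 1.22 for IL01 in 1-butanol, against 54.8 and 75.2 for WA, 2.73 and 2.16 for PAP and 12.4 and 14.0 for IL01 in YPD. It fell by 2.65 (SE 0.30, adjusted p = 0.00038), but in PAP its level was low in both media, and 1 library there was listed at 0. The gene is short (chrIV:691014-691214), so its 1-butanol levels in IL01 also rest on few reads. INH1, a peptide that inhibits the mitochondrial ATPase, had 22.4 and 19.4 for WA, 20.6 and 21.4 for PAP and 41.6 and 31.3 for IL01 in 1-butanol, against 52.7 and 88.6 for WA, 62.9 and 61.3 for PAP and 173 and 139.8 for IL01 in YPD. The media did not overlap, and INH1 fell by 1.78 (SE 0.14, adjusted p = 4e-05). It was counted in the ATP synthase list, of which 3 of 16 fell (8 without WA in YPD replicate 1) and none rose, with a median of -0.31. ATP19, subunit k of the synthase, fell by 0.82 (adjusted p = 0.00095). None of the 66 genes for mitochondrial ribosomal proteins passed in limma or with voom weights, 3 had an unadjusted p below 0.05, and their median was 0.03, with -0.26 in WA, 0.11 in PAP and 0.31 in IL01. Without WA in YPD replicate 1, 7 of them rose. MRPS12, the most abundant of them, had 86.5 to 146 (median 111) in 1-butanol and 86.0 to 135 (median 118) in YPD.

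Enzymes of the citrate and glyoxylate cycles and of lactate metabolism changed in both directions, with 3 of 26 higher and 5 lower (3 without PAP in YPD replicate 1) and a median of 0.14. CIT2, the peroxisomal citrate synthase and the usual marker of retrograde signalling from mitochondria to the nucleus, had 71.0 and 66.1 for WA, 177 and 160.3 for PAP and 93.2 and 80.4 for IL01 in 1-butanol, against 13.6 and 19.3 for WA, 40.4 and 25.1 for PAP and 15.5 and 13.7 for IL01 in YPD. It rose without overlap between media, by 2.34 (SE 0.13, adjusted p = 6.2e-06), and the strains were close (2.06 in WA, 2.39 in PAP and 2.56 in IL01). DLD3, a cytosolic enzyme of D-2-hydroxyglutarate and lactate that belongs to the same retrograde regulon, had 194 to 452 (median 381) in 1-butanol and 88.5 to 233 (median 151) in YPD and rose by 1.13 (SE 0.12, adjusted p = 0.00024). CYB2, the L-lactate dehydrogenase of the intermembrane space, had 2.99 and 3.68 for WA, 0.225 and 0.282 for PAP and 1.73 and 1.41 for IL01 in 1-butanol, against 8.92 and 12.6 for WA, 1.3 and 1.42 for PAP and 6.72 and 7.89 for IL01 in YPD. It fell by 1.78 (SE 0.16, adjusted p = 8.9e-05). DLD1, the mitochondrial D-lactate dehydrogenase, fell by 0.68 (adjusted p = 0.001) and did not pass on the deposited scale (adjusted p = 0.0491).

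Purine synthesis genes were lower in part, with the lowest median in PAP. Of 12 tested, 5 fell and 1 rose, with a median of -0.49, the number that fell being 3 without PAP in YPD replicate 1 and 8 without WA in YPD replicate 1. The strain medians were -0.24 in WA, -1.05 in PAP and -0.24 in IL01. ADE17, which catalyses the last steps towards inosine monophosphate, had 37.7 and 48.0 for WA, 6.02 and 6.93 for PAP and 19.2 and 10.1 for IL01 in 1-butanol, against 56.6 and 82.9 for WA, 44.6 and 57.0 for PAP and 33.1 and 42.8 for IL01 in YPD. It fell in all pairs, by 1.67 on average (adjusted p = 0.00023) and by 2.92 in PAP, the strains not passing the joint test for a difference (adjusted p = 0.078). ADE12, the adenylosuccinate synthase, had 37.8 to 114 (median 62.8) in 1-butanol and 141 to 207 (median 189) in YPD and fell by 1.49 (SE 0.12, adjusted p = 3.5e-05) without overlap. ADE6, of the middle of the pathway, fell by 0.91 (adjusted p = 0.00085). HIS1, the first enzyme of histidine synthesis, which like the purines draws on phosphoribosyl pyrophosphate, had 79.9 to 242 (median 130.3) in 1-butanol and 266 to 421 (median 336) in YPD and fell by 1.27 (adjusted p = 8.8e-05), with -2.08 in PAP.

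Some genes of methionine and arginine synthesis fell, while the list of glutamate, ammonium and nitrogen genes held few calls. Of 29 genes for sulfate assimilation and methionine synthesis 6 fell and none rose, with a median of -0.17 that was 0.02 on the deposited scale. MET6, the methionine synthase, had 182 and 168 for WA, 17.9 and 15.3 for PAP and 90.7 and 81.1 for IL01 in 1-butanol, against 243 and 311 for WA, 104 and 82.7 for PAP and 116 and 98.4 for IL01 in YPD. The decrease of 1.15 (adjusted p = 8.9e-05) was largest in PAP (-2.47, against -0.65 in WA and -0.32 in IL01) and did not pass with strain as an additive block (adjusted p = 0.0202). SAM1, an S-adenosylmethionine synthetase, had 123 to 503 (median 328) in 1-butanol and 434 to 818 (median 725) in YPD and fell by 1.25 (adjusted p = 0.0011). ARG1, the argininosuccinate synthetase, fell by 0.79 (adjusted p = 0.00073), and 3 of 10 arginine genes fell and none rose. Without PAP in YPD replicate 1 that number was 1, while 1 arginine gene rose without WA in YPD replicate 2. In the glutamate, ammonium and nitrogen list 2 of 19 rose and 1 fell, with a median of 0.11. GLT1, the glutamate synthase, fell by 0.95 (adjusted p = 0.0016, 0.0105 without PAP in YPD replicate 1). DUR12, spelled DUR1,2 in full, which breaks down urea, rose by 0.87 (SE 0.11, adjusted p = 0.00058), mostly in WA (1.81). GCV3, the H protein of the glycine cleavage system, had 57.0 to 449 (median 152) in 1-butanol and 55.1 to 132 (median 89.5) in YPD and rose by 0.89 (SE 0.09, adjusted p = 0.00018), with 1.75 in WA, 0.17 in PAP and 0.76 in IL01. DUR12 and GCV3 did not pass with strain as an additive block (adjusted p = 0.02 and 0.0132).

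Transcripts of the small ribosomal subunit were slightly lower as a set of genes, and 5 of 56 were called lower and none higher. All 56 had a negative change, with a median of -0.43, and 53 were lower in all 6 pairs, against 14.5% of all genes. The set's place depended on the scaling, since its median was -0.21 on the deposited scale and -0.07 after quantile normalisation, and the block within strains called 54, while leaving out WA in YPD replicate 1 called 19. RPS22B (YLR367W, chrXII:856442-857317) stood apart from the others, with 216 and 302 for WA, 172 and 163 for PAP and 643 and 521 for IL01 in 1-butanol, against 851 and 1261 for WA, 834 and 874 for PAP and 1801 and 1444 for IL01 in YPD. It fell by 1.95 (SE 0.14, adjusted p = 2.4e-05). RPS14B had 319 to 642 (median 438) in 1-butanol and 792 to 1818 (median 1032) in YPD and fell by 1.27 (adjusted p = 0.00062), and RPS24B fell by 1.12 (adjusted p = 0.00051). Each of the 3 has a close copy elsewhere in the genome, with which reads may have been shared. Of 46 ribosome biogenesis genes 1 fell, with a median of -0.16.

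**Figure D3:**
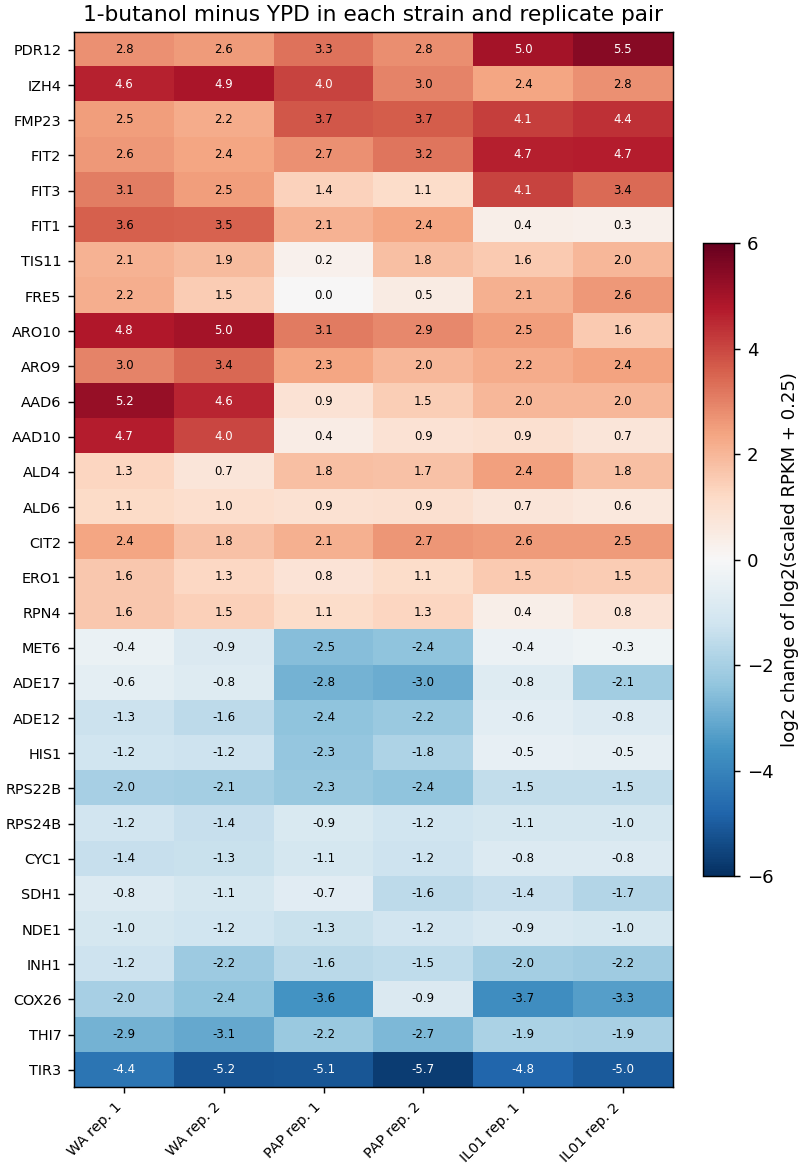
Log2 change in 1-butanol minus YPD with oxygen in each of the 6 strain-by-replicate pairs (columns) for 30 genes described in the text (lines), red for higher and blue for lower, with the value in each cell. AAD6 changed by 4.92 in WA and 1.19 in PAP, MET6 by -0.65 in WA and -2.47 in PAP, and TIR3 by between -4.77 and -5.41 in the 3 strains.

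Differences in response between strains reached an FDR under 1% in 5 genes (0.0896%) in a joint test over the 3 strains. AAD6 and AAD10 are described above (adjusted p = 0.0024 and 0.0011). The other 3 were named after their values were seen. HXK1, a hexokinase that is made when glucose is low, changed by 1.20 in WA, -2.05 in PAP and -2.74 in IL01. RTC3 changed by 1.01 in WA, -0.82 in PAP and -3.18 in IL01. YGL039W, an oxidoreductase close in sequence to ARI1 and GRE2, changed by 3.49 in WA, 1.04 in PAP and 0.61 in IL01. WA was the strain that stood higher in all 5. No gene passed this test in limma without WA in 1-butanol replicate 1 or without replicate 2, where 427 and 388 genes had an unadjusted p below 0.05, against 615 with all libraries. The count was 45 without WA in YPD replicate 1, 79 without WA in YPD replicate 2, 1 to 3 without PAP in YPD replicate 1 or 2, IL01 in YPD replicate 2, PAP in 1-butanol replicate 2 or IL01 in 1-butanol replicate 1, and 69 with the block within strains. PDR12, with the largest change in IL01, had an adjusted p of 0.022 in the same test and did not pass, nor did TIP1 (0.022), FIT1 (0.018) and MET6 (0.013).

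The same strains were also grown in 0.8% 1-butanol and in YPD without oxygen, in 12 further libraries from a chamber with stirred vessels, so that oxygen and vessel cannot be told apart. A fit of all 24 libraries tested whether the change in 1-butanol differed with oxygen, and 549 of 5681 genes passed (9.66%), of which 202 had the higher change with oxygen (3.56%) and 347 the lower (6.11%). The block for each replicate number within each strain gave 721, 312 with the higher change and 409 with the lower. Among the 418 shared genes, 78 of those that rose and 60 of those that fell were in this set. Shared genes were picked by their change in the same libraries with oxygen, so a raised share among them is built in. Without oxygen 2042 genes differed between 1-butanol and YPD (35.9%). A low share of reads lay in genes in PAP in YPD replicate 2 (53.5%) and WA in 1-butanol replicate 1 (56.1%) without oxygen, and the count of 549 was 538 without the first and 419 without the second, while it was 844 without WA in YPD replicate 1 with oxygen.

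The siderophore list was higher with oxygen and held few calls without it, while the respiratory list had medians of opposite sign. The siderophore list had a median of 1.47 with oxygen and -0.20 without it in this fit. Of its 7 members, 6 had a higher change with oxygen, against 3.56% of all genes. Without oxygen 1 member rose and 2 fell. FIT2 changed by 1.17 without oxygen, from a mean of 0.832 RPKM in YPD, a difference of 2.21 (adjusted p = 0.0022). FIT3 changed by -0.20 and did not pass there, a difference of 2.78 (adjusted p = 0.00021). The respiratory chain had a median of -0.51 with oxygen and 1.00 without it, and 18 of 26 members had a lower change with oxygen and none a higher one. Over all genes, 6.11% had a lower change with oxygen. NDE1 changed by 1.01 without oxygen, a difference of -2.14 (adjusted p = 3.5e-05). ATP synthase genes had medians of -0.32 with oxygen and 0.65 without it, 11 of 16 with a lower change with oxygen. INH1 changed by 2.03 without oxygen (difference -3.82, adjusted p = 2.3e-05). Its levels there were low, at 8.01 ± 10.7 in 1-butanol and 1.65 ± 1.90 in YPD (SD, n = 6 each). The 19 trehalose and glycogen genes had medians of -0.24 with oxygen and 1.34 without it, and 15 of them had a lower change with oxygen. GSY1, a glycogen synthase, changed by -1.38 with oxygen and 1.80 without it.

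**Figure D4:**
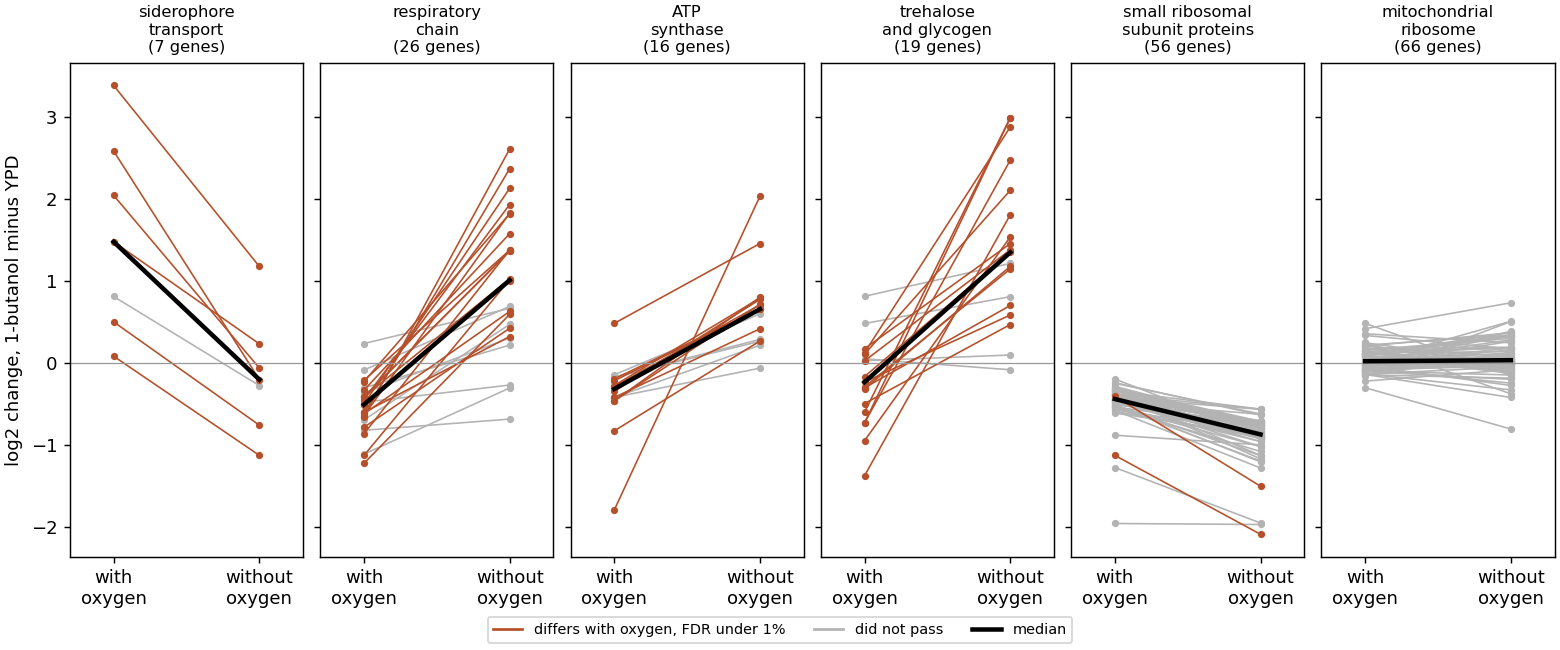
Log2 change in 1-butanol minus YPD with oxygen (left of each panel) and without oxygen (right of each panel) for the members of 6 gene lists, with a line for each gene, coloured where the difference passed an FDR under 1%, and a black line for the median. The respiratory chain median is -0.51 with oxygen and 1.00 without it, that of the siderophore list 1.47 with oxygen and -0.20 without it, and that of the mitochondrial ribosome 0.02 with oxygen and 0.03 without it.

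Single genes also differed with oxygen. IZH4 rose with oxygen and did not pass without it. It averaged 91.1 ± 101 in 1-butanol and 4.34 ± 2.75 in YPD with oxygen, but 362 ± 53.8 in 1-butanol and 378 ± 119 in YPD without it (SD, n = 6 each, levels with and without oxygen scaled in separate fits), a difference of 3.63 (adjusted p = 9.3e-08). Its level without oxygen was high in either medium. TIR3 fell by 5.05 with oxygen in this fit and changed by -0.70 without it (difference -4.35, adjusted p = 8.8e-08). ALD6 had opposite changes, 0.88 with oxygen and -2.02 without it (difference 2.90, adjusted p = 4.5e-07). ARO10, RPS22B and PDR12 moved in the same direction in both, ARO10 by 3.32, RPS22B by -1.97 and PDR12 by 2.35 without oxygen, and of these 3 genes PDR12 passed the test of the difference (1.28, adjusted p = 0.00056).

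Isobutanol, a branched isomer of 1-butanol, and ethanol, with a shorter chain, were given with oxygen at 1% and 4%, other doses than that of 1-butanol, and were set against the same 6 YPD libraries. Values are therefore given side by side without a comparison between the alcohols, each from its own fit. PDR12 changed by 3.64 in 1-butanol, -0.77 in isobutanol and -1.28 in ethanol. FIT2 changed by 3.38 in 1-butanol, 3.08 in isobutanol and 0.34 in ethanol, and the siderophore list had medians of 1.48, 1.00 and -0.33 in that order. ARO10 changed by 3.31, -0.15 and 4.38, and ALD4 by 1.64, -1.07 and 0.61, in the same order of media. The respiratory chain had medians of -0.50, -0.58 and 0.24, and the purine list medians of -0.49, 0.24 and -0.16.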

How the data were processed

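Strand-specific, rRNA-depleted RNA libraries were sequenced as single reads of 100 bp. Per the labels and the methods, the authors trimmed reads with Trimmomatic, mapped them with bwa mem to the S288c genome (R64), counted them with HTSeq and deposited log2 RPKM for each gene and library, with 0 for no reads. The strand setting of the counting is not given in the sources used here, so overlapping genes are uncertain. Whole reads came out for 6010 of 6713 gene IDs (89.5%, tolerance 0.01 reads). Of the IDs, 691 had no match in RefSeq R64 and were kept under their IDs. A few lines of the table held no values and were not analysed here.

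Values were turned back into RPKM, divided by a median-of-ratios factor per library (-0.47 to 0.33 on the log2 scale), filtered at a mean RPKM of at least 1 and tested as log2(scaled RPKM + 0.25). This pseudocount makes changes of low genes too small. The test was limma 3.58.1 in R 4.3.3 with a trended prior, a mean for each strain and medium, and the replicate number as a block, the contrast being the mean over 3 strains. The authors fitted edgeR to counts, which are not used here because the deposited unit is log2 RPKM. Genes named are the 10 largest shared changes of each direction where the mean scaled RPKM reached 10, the 3 largest shared changes of each of 43 gene lists (or the most abundant member where none was shared) and 5 oxidoreductase genes of interest to the study. The members and lists were chosen with earlier results of these data known. Separate cultures stand behind the replicates. Samples with the same number within a strain deviated together (correlations of 0.15 in WA, 0.29 in PAP and 0.59 in IL01 over genes). Across strains the correlations ran from -0.415 to 0.51, and all those of WA in YPD were negative. The block of the main fit runs over all strains, so it does not follow the pairing within strains. Values with the block within strains are therefore given where they move a count by over 1.5 times. Alternatives changed the scaling, pseudocount, filter, block, trend, weights and, one at a time, the libraries. The procedure was tested on simulated data. Calculations used Python 3.11.15, pandas 2.3.3, NumPy 2.4.6 and matplotlib 3.10.9. Intervals of counting error were not needed, as every value has replicates.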

Additional observations from a re-analysis of the deposited data

Results flagged for a closer look

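In 5 of the 103 named genes a single pair of 6 stood apart from the others by Dixon's test at the 95% level, which chance alone would give in about 1 of 20 genes. TIS11 changed by 0.25 in the first PAP pair and by 1.55 to 2.07 in the other pairs. ARG1 changed by -0.41 in the second PAP pair and by -0.99 to -0.78 elsewhere. ATP19 changed by -1.35 in the first WA pair and by -0.79 to -0.56 elsewhere. GTT2 changed by 2.78 in the first IL01 pair, with 1.41 to 1.70 in the others, and RIB1, of riboflavin synthesis, by 1.39 in the second WA pair, with 0.70 to 0.88 in the others.

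The change in 1-butanol differed between strains in AAD6 (adjusted p = 0.0024) and AAD10 (adjusted p = 0.0011) among the named shared genes, by limma's joint test.

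In 49 shared genes of the 103 named genes the change in 1-butanol differed with oxygen, against 9.66% of all genes. They were named by their change in the same libraries with oxygen, so a raised share is built in. The values that follow are the log2 change with oxygen minus that without. The vessel differs along with oxygen and cannot be told apart from it. The difference was 2.21 for FIT2, 2.78 for FIT3, 2.10 for FIT1, 0.98 for COT1 and 3.63 for IZH4, all metal-related genes. FRE5 had 1.46, but it averaged 0.0406 RPKM in 1-butanol and 0.0362 RPKM in YPD without oxygen, so low that the pseudocount holds its change there near 0. FAA1, CYB2 and HXT7 also averaged below 1 RPKM in both media without oxygen. Levels there were low as well for COX26 (1.03 in 1-butanol and 0.551 in YPD), FIT1 (0.977 and 1.10) and FIT2 (2.41 and 0.832). The pseudocount makes changes at such levels too small. Transporters were split, with 1.28 for PDR12, 2.25 for ATO2 and 1.27 for HXT2, a hexose transporter, but -2.10 for TPO4, -1.23 for RSB1, -1.46 for PDR11, -1.44 for THI7, -1.23 for SAM3 and -2.29 for HXT7. The sign of a difference is not the sign of the change with oxygen. HXT2 changed by -1.11 with oxygen, a call lost in some fits that left out 1 library. RSB1 rose by 1.99 with oxygen and by 3.22 without it. The difference was 1.29 for ALD4, 2.90 for ALD6, 1.39 for AAD6 and 1.14 for BAT2. Lipid genes differed by 1.11 for FAA1 and 1.02 for MGA2. The named respiratory genes and their partners had -1.82 for SDH1, -2.14 for NDE1, -3.14 for COX26, -3.82 for INH1, -1.09 for ATP19, -1.26 for ATP20, another subunit of the synthase, and -1.81 for CYB2. The difference came to 0.98 for CIT2 and 1.10 for DLD3, both of the retrograde regulon, and to -4.35 for TIR3 and -2.39 for CWP1, both of the cell wall.

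Amino acid genes differed by -0.67 for LYS21, the homocitrate synthase, by -0.76 for MET6, by -1.53 for PUT2, which breaks down proline, by -2.91 for SER3, of serine synthesis, by 0.61 for DUR12 and by 0.66 for GCV3. Stress and carbon genes differed by -3.18 for GSY1, -2.50 for HSP26, -1.71 for GPX2, -1.33 for AHP1, a peroxiredoxin, -2.25 for MTH1 and 0.73 for RPN4. The remaining differences were 1.13 for FMP23, 1.91 for SPO24, 2.20 for CIS1, 0.66 for RIB1 and 0.96 for RPS24B. With oxygen, LYS21 changed by 0.405, PUT2 by 0.452, SER3 by -0.433, AHP1 by -0.851 and ATP20 by -0.453. Each of these calls with oxygen was lost in most fits that left out 1 library.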

How the results depend on the processing

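Among the 96 named genes past the threshold, 59 kept their call in every alternative fit that tested them. The call was lost by 30 in some fit that left out a library and by 29 in some other fit. Of the 59, AAD6, CYB2, GSY1 and PDR11 were not tested in all 24 alternative fits. Leaving out 1 library gave 247 to 1025 calls, 225 to 895 shared genes, 0 to 79 genes that differed between strains and 386 to 844 that differed with oxygen. The replicate block within strains gave 1189 calls, 971 shared genes and 69 strain differences, which came to 26 after quantile normalisation, 15 with a pseudocount of 1, 8 on the log2 values as deposited and 9 with voom weights. Quantile normalisation called 322 genes higher and 263 lower. MRPS12, at -0.01 and not called, was 0.204 on the deposited scale and -0.124 to 0.096 with 1 library left out, and SPS4, at 0.09 and not called, was -0.086 without WA in 1-butanol replicate 1, -0.064 without IL01 in 1-butanol replicate 2 and up to 0.273 without others. The additive strain fit has no strain difference to test, and for oxygen it was not run. Genes near 0.215 to 0.387 RPKM rest on about 3 reads per kb, which limits HXT7 in PAP. COX26 is far shorter than 1 kb (chrIV:691014-691214), so its low levels in PAP and IL01 rest on still fewer reads.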

Other observations

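Lists whose members mostly did not pass add to the picture. Mating and sporulation genes, which mark other states of the yeast cell, were nearly silent. Of 10 mating genes 4 passed the filter, with a summed level of 6.30 to 10.6 in 1-butanol and 5.60 to 18.4 in YPD, and the most abundant, MFA2 (a-factor), changed by -0.43 (adjusted p = 0.18) in limma's test. Of 10 sporulation genes 2 passed the filter, with sums of 2.90 to 8.90 in 1-butanol and 3.10 to 5.60 in YPD. SPS4 changed by 0.09 (adjusted p = 0.8). Of 20 genes for inositol and phospholipid synthesis 1 fell, PSD1 (phosphatidylserine decarboxylase), by 0.52 (adjusted p = 0.0091), and of 22 sphingolipid genes 1 rose, LCB3 (a phosphatase of long-chain base phosphates), by 0.72 (adjusted p = 0.006). Both calls were lost in most fits that left out 1 library, 10 of 12 for PSD1 and 8 of 12 for LCB3. Of 9 lysine genes 2 rose, 1 of them shared, and none fell.

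Upstream of other lists, the Gcn4 letters TGACTC were found in the 500-base window of 83.3% of purine genes, 100% of arginine genes and 13.1% of all genes, and CCAAT, the letters bound by the Hap complex, in that of 88.5% of respiratory chain genes, 100% of ATP synthase genes and 62.8% of all genes, on either strand. The stress element AGGGG was found before 44.5% of shared increases and 34.1% of all genes. These shares describe the letters only.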
